A study of Arabidopsis with 2 samples.

Results

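The transposable element probes of the array were those gene probes whose description in the scanner files contains the word part "transpos", "retroelement" or "reverse transcriptase". They numbered 433 of the 21500 gene probes, each with its own gene identifier. The arrays compared the RNA of cuc1-1 cuc2-1 double mutant embryos, which form no shoot meristem, with that of wild-type embryos of the strain Ler, both recorded as torpedo stage. Each genotype gave 1 RNA extract from about 100 pooled embryos, excised in 6% glucose from parents grown at 23°C under continuous light, where the parents of the mutant embryos were cuc1-1 cuc2-1/+ and those of the wild-type embryos were Ler. Both extracts competed for the same spots in each of 2 hybridizations, with the cuc1 cuc2 sample in the red dye Cy5 and the Ler sample in the green dye Cy3 in experiment 1, and with the dyes exchanged in experiment 2. The pair of hybridizations therefore measures technical error, and no spread between embryo samples was measured.

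Transposable elements are stretches of DNA that can move or copy themselves within a genome. Retroelements do so through an RNA copy that reverse transcriptase turns back into DNA. Some have long terminal repeats, among them the gypsy-like and copia-like elements and the Athila elements of pericentromeric regions. The non-LTR elements lack such repeats. DNA transposons, such as the Mutator-like, CACTA-like (En/Spm) and hAT-like (Ac) families, are cut out and reinserted by a transposase. In Arabidopsis most copies are kept silent by DNA methylation, histone H3 lysine 9 methylation and small RNAs, and some former transposase genes now serve the plant as ordinary genes.

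In the gene table of RefSeq (assembly TAIR10.1), 422 of the 433 identifiers were found. Of all 433 probes, 360 (83.1%) had an entry marked as a pseudogene, against 3.21% of all gene probes, and 62 (14.3%) were marked as protein-coding, against 95.3%. The transposable element probes made up 52.1% of all 691 pseudogene probes on the array. By their descriptions, 265 were retroelements, of which 135 were non-LTR elements, 22 Athila, 6 copia-like and 3 gypsy-like, and 99 were named only as retroelement or reverse transcriptase. Another 106 belonged to a named family of DNA transposons, with 44 Mutator-like, 44 CACTA-like, 16 hAT-like and 2 others. A further 61 were transposons or transposases whose descriptions held none of the family terms searched, although 9 of them name the elements TNP, Tam3 or PttA, and 1 was the gene for telomerase reverse transcriptase, which entered through the words of its description.

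The probed elements were unevenly spread over the genome. Chromosome 2 held 143 of them, which is 4.41% of its gene probes, whereas chromosome 1 held 38 (0.651%), chromosome 3 held 80 (1.91%), chromosome 4 held 71 (2.19%) and chromosome 5 held 101 (2.03%). Among the 422 with a RefSeq position, 172 (40.8%) had another transposable element probe as the next probed gene. The longest uninterrupted run was 7 probed genes, from AT5G32900 to AT5G33259, and 29 runs held 3 or more. Many elements exist in several similar copies, and since no probe sequence was examined, a signal may come from more than the gene that the probe is named for.

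Of the mutated genes, CUC2 had log2 ratios of cuc1 cuc2 over Ler of -0.62 and -0.999 in experiments 1 and 2, and CUC1 had 0.021 and -0.11. As to the labelled tissue, the probes of the embryo regulators LEC1, LEC2, FUS3 and ABI3 were well above background in every channel. Of 4 endosperm genes, AGL62 was well above background in all 4 channels, FIS2 in 3, and MEA and FWA in none, and both pollen genes examined (VEX1 and AT5G45880) were well above background in all 4. None of these 10 marker genes was called lower or higher, but only 0.744% of all gene probes were. Their part in the signal of the elements was not tested.

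Most transposable element probes gave a signal in embryos of both genotypes, but fewer than among other genes. The scanner software marks a spot as well above background when its signal exceeds the local background by a margin set from the noise. In experiment 1 this held for 303 (70.0%) of the transposable element probes in the cuc1 cuc2 channel against 287 (66.3%) in the Ler channel, and in experiment 2 for 295 (68.1%) in the cuc1 cuc2 channel against 286 (66.1%) in the Ler channel. Over all gene probes the shares were 88.8% in cuc1 cuc2 against 88.2% in Ler in experiment 1, and 88.2% in cuc1 cuc2 against 87.5% in Ler in experiment 2. In all 4 channels, 257 (59.4%) of the transposable element probes met the criterion, against 18102 (84.2%) of all gene probes, and in no channel 102 (23.6%), against 1686 (7.84%). The other 74 met it in some channels. The remaining pseudogene probes of the array, 331 in number, lay near the transposable elements, with 211 (63.7%) well above background in all 4 channels. In a pooled extract, fewer cells with a transcript and less transcript per cell cannot be told apart.

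The raw signals of these probes were low and followed the dye more than the genotype. The median raw brightness was 101 in cuc1 cuc2 against 163 in Ler in experiment 1, and 159 in cuc1 cuc2 against 97.7 in Ler in experiment 2. The median local background was 65 in cuc1 cuc2 against 72 in Ler in experiment 1, and 71.5 in cuc1 cuc2 against 66 in Ler in experiment 2. Over all gene probes the median raw brightness was 225 in cuc1 cuc2 against 244 in Ler in experiment 1. In experiment 2 it was 242 in cuc1 cuc2 against 202 in Ler. The brighter channel was thus the one with Cy3 in both hybridizations, for the transposable element probes as for all gene probes. Signals that the software could not tell from background were replaced by a substitute value. In experiment 1 this happened for 61 (14.1%) of the transposable element probes in cuc1 cuc2 against 36 (8.31%) in Ler. In experiment 2 it happened for 44 (10.2%) in cuc1 cuc2 against 68 (15.7%) in Ler. Over all gene probes the shares were 4.72% in cuc1 cuc2 against 3.75% in Ler in experiment 1. In experiment 2 they were 3.57% in cuc1 cuc2 against 5.11% in Ler. No transposable element spot was saturated, and none was marked as a poor spot.

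The element classes differed in how many of their probes were well above background in all 4 channels. Retroelements reached 172 of 265 (64.9%) and DNA transposons of a named family 55 of 106 (51.9%). Among the retroelements, all 6 copia-like and all 3 gypsy-like probes were well above background, followed by 71 of the 99 without a named family (71.7%), 13 of the 22 Athila probes (59.1%) and 79 of the 135 non-LTR probes (58.5%). Of the copia-like probes 5 were marked as protein-coding in RefSeq. Among the DNA transposons the share was 54.5% for Mutator-like, 52.3% for CACTA-like and 50% for hAT-like probes, and neither of the probes of other DNA transposons met the criterion. The transposons and transposases without a family term had the lowest share among the classes with at least 6 probes, with 29 of 61 (47.5%) well above background in every channel and 23 in none. Protein-coding members exceeded pseudogenes, with 43 of 62 (69.4%) against 207 of 360 (57.5%). These shares are counts of probes and were not tested.

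**Figure D1:**
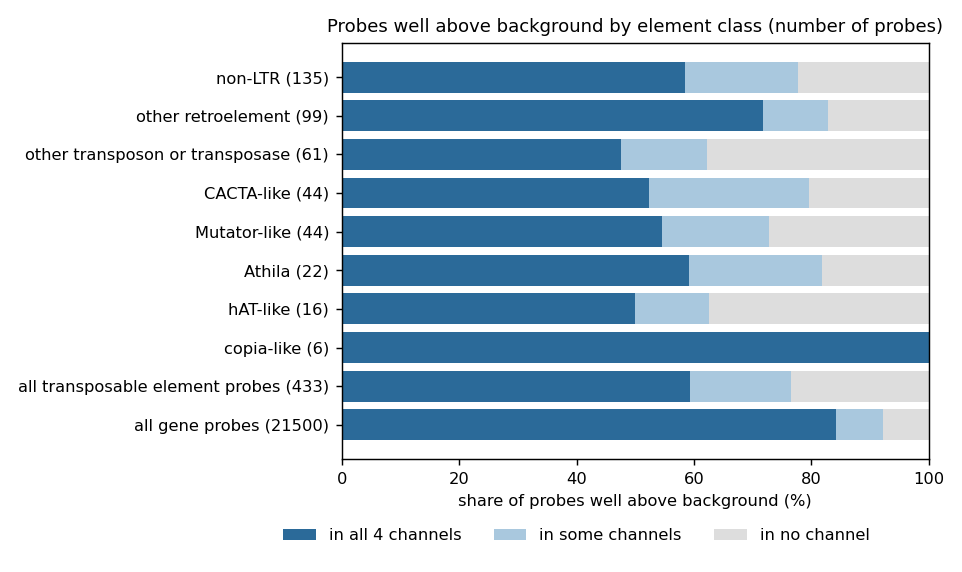
Share of probes (%) that the scanner software marked as well above background in all 4 channels, in some or in none, for each element class with at least 6 probes, for all 433 transposable element probes and for all 21500 gene probes. The all-channel share was 59.4% for transposable element probes and 84.2% for all gene probes, and among the classes it lay between 47.5% and 100%.

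By the rule of the study and its mirror, no transposable element probe was called as changed in cuc1 cuc2. The study selected genes whose ratio was lower both times, each time with a scanner software p-value under 0.01, and the same limit was applied here to higher genes. Of the 433 transposable element probes 0 were lower in cuc1 cuc2, against 52 (0.242%) of all gene probes, and 0 were higher, against 108 (0.502%), so that the share of all gene probes called in either direction was 0.744%. Nor was any transposable element called with opposite signs in the hybridizations, as 11 (0.0512%) of all gene probes were. Even in a single hybridization no transposable element had a p-value under 0.01, whereas 336 (1.56%) of all gene probes had one in experiment 1 and 334 (1.55%) in experiment 2. The lowest p-value among the transposable elements was 0.0136 in experiment 1 and 0.0161 in experiment 2. With the wider limit of 0.05 in both hybridizations, 0 were lower and 0 higher, against 102 (0.474%) and 237 (1.1%) of all gene probes, or 1.58% in either direction.

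The p-values come from an error model of the software for 1 array, and they equal the two-sided normal p-value of the ratio divided by its error to within 3.23e-08. A probe therefore had to differ by 2.58 times its error to pass 0.01. For the 257 transposable element probes well above background the median error of the log2 ratio was 0.43 in experiment 1 and 0.32 in experiment 2, against 0.21 and 0.19 for the 18102 gene probes well above background. A log2 ratio of 1 in size, that is a doubling or a halving, seen alike in both hybridizations would have been called for 120 (27.7%) of the 433 transposable element probes, against 63.0% of all gene probes. The count of 0 thus covers fewer than 1 in 3 of the elements for a change of that size, and a smaller change was not detectable for most of them. The measured ratios limit the change further. For 183 (42.3%) of the 433 probes the 95% interval of the mean ratio under the software's error model lay within 1 of 0 on the log2 scale, as it did for 74.0% of all gene probes. Among the 257 well above background it was 71.2%. These intervals cover the technical error only.

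The mean ratios of the transposable elements stayed close to 0, while the ratios of the single hybridizations often had opposite signs and cancelled in part. Over the 257 probes well above background in all 4 channels, the mean over both hybridizations of the log2 ratio (cuc1 cuc2 over Ler) ranged between -0.43 and 0.30, with a median of -0.028, quartiles of -0.083 and 0.013 and an SD over probes of 0.095. Over all 18102 gene probes well above background the median was -0.0047 and the SD 0.175. The smaller SD of the elements is one of means and does not show closer agreement. Their median difference between the hybridizations was 0.19, against 0.14 over all gene probes well above background. None of the 257 had a mean beyond 0.5 in size, against 335 (1.85%) of all gene probes well above background, while with dim probes included the counts were 10 of 433 (2.31%) and 605 of 21500 (2.81%). The median depended on the processing and was -0.032 to -0.0083 with other background corrections or normalizations.

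The medians of the element classes were all close to 0. The median mean log2 ratio was -0.025 for the 172 retroelements and -0.029 for the 55 DNA transposons of a named family. Within the retroelements it was -0.024 for non-LTR elements, -0.057 for Athila, 0.0053 for copia-like, 0.0036 for gypsy-like and -0.027 for the unnamed remainder, and within the DNA transposons -0.033 for Mutator-like, -0.052 for CACTA-like and 0.019 for hAT-like elements. The medians of pseudogenes (-0.024) and of protein-coding members (-0.032) were likewise near 0. Across chromosomes 1 to 5, the medians lay between -0.031 and -0.023.

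The hybridizations differed in sign for most of the elements. Of the 257 probes, 22 (8.56%) were higher in cuc1 cuc2 both times, 55 (21.4%) were lower both times and 180 (70.0%) had opposite signs, against 26.1% higher, 26.0% lower and 47.9% opposite among all gene probes well above background. Of the 180, the Cy5 channel was the brighter one in both hybridizations for 93 and the Cy3 channel for 87. Across the 257 probes Pearson's r between the log2 ratios of the hybridizations was -0.77, whereas it was -0.020 across the 18102 gene probes. These probes share arrays, extracts and dyes, so the coefficients only describe them. A ratio that follows the genotype has the same sign in both hybridizations, and one that follows the dye has opposite signs. Technical error around a ratio of 0 can give either pattern. Which of these holds for the 180 probes was not tested.

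The negative relation was stronger among probes with large errors, but it was not limited to them. For probes whose larger error was at least 0.5, r was -0.81 over 114 transposable element probes and -0.55 over 3431 gene probes. For those below 0.5, r was -0.58 over 143 transposable element probes and 0.39 over 14671 gene probes. It was -0.80 for pseudogene members and -0.52 for protein-coding members, and -0.50 for the other 211 pseudogene probes. For the 7 members not found in RefSeq it was 0.18. For classes with at least 6 such probes, r was -0.91 for the transposons and transposases without a family term, -0.88 for CACTA-like and -0.85 for Mutator-like elements. It was -0.72 for the unnamed retroelements, -0.69 for Athila, -0.64 for non-LTR and -0.52 for hAT-like elements. Only the 6 copia-like probes gave a positive value, 0.53, and 5 of these 6 were marked as protein-coding in RefSeq. Loess normalization, which removes a dye bias that depends on brightness, left r of the transposable elements between -0.71 and -0.67, while r of all gene probes was then between 0.30 and 0.45. With a median centring in its place, the values were -0.88 for the transposable elements and -0.39 for all gene probes.

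**Figure D2:**
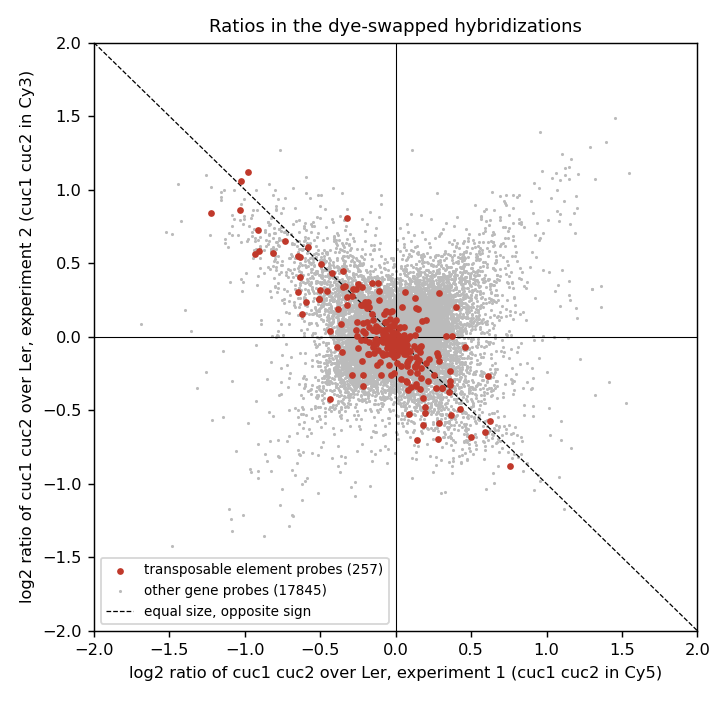
Log2 ratio of cuc1 cuc2 over Ler in experiment 1 (horizontal axis) and experiment 2 (vertical axis) for the 257 transposable element probes (red) and the other 17845 gene probes (grey) well above background in all 4 channels, of which 2 lie outside the axes. The red points follow the dashed line of equal size and opposite sign, with r of -0.77, and none lies beyond 0.5 the same way in both experiments.

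The elements with the lowest p-values showed the same opposition. In at least 1 experiment, 6 transposable elements had a p-value under 0.05, with 4 (0.924%) in each experiment, against 3.87% of all gene probes in experiment 1 and 3.6% in experiment 2. They are described here because of these values, all 6 are pseudogenes in RefSeq, and all 6 were brighter in Cy3 both times. AT2G15810, a Mutator-like transposase, had a dye-normalized signal of 192 in cuc1 cuc2 against 450.0 in Ler in experiment 1, and of 421 in cuc1 cuc2 against 235 in Ler in experiment 2. Its log2 ratios were -1.23 (p-value 0.0219) and 0.84 (p-value 0.0212), so the direction in one experiment was the reverse of that in the other. AT5G34266, a retroelement polyprotein, had signals of 339 in cuc1 cuc2 against 635 in Ler in experiment 1, and of 602 in cuc1 cuc2 against 401 in Ler in experiment 2. Its log2 ratios were -0.91 (p-value 0.0136) and 0.59 (p-value 0.0283), and these 2 probes are the only transposable elements with a p-value under 0.05 both times. AT4G05526, an En/Spm-like protein, gave 168 in cuc1 cuc2 against 341 in Ler in experiment 1, and 360.1 in cuc1 cuc2 against 173 in Ler in experiment 2. Its ratios of -1.02 and 1.06 cancelled to a mean of 0.017.

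The brighter probes of this kind behaved alike at smaller sizes. AT3G30570, described as a reverse transcriptase, had signals of 1263 in cuc1 cuc2 against 1728 in Ler in experiment 1 and of 1292 in cuc1 cuc2 against 1040 in Ler in experiment 2, with log2 ratios of -0.45 and 0.31. AT3G31406, a Mutator-like transposase, had log2 ratios of -0.50 and 0.32, and AT2G13330, a retroelement polyprotein with signals between 2244 and 3002, had -0.25 and 0.36. In all 6 the mean of the hybridizations lay between -0.19 and 0.056. By size alone, 16 (6.23%) of the 257 probes well above background were beyond 0.5 with opposite signs, against 287 (1.59%) of all gene probes well above background, and of the 16 12 were brighter in Cy3 and 4 in Cy5 both times.

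**Figure D3:**
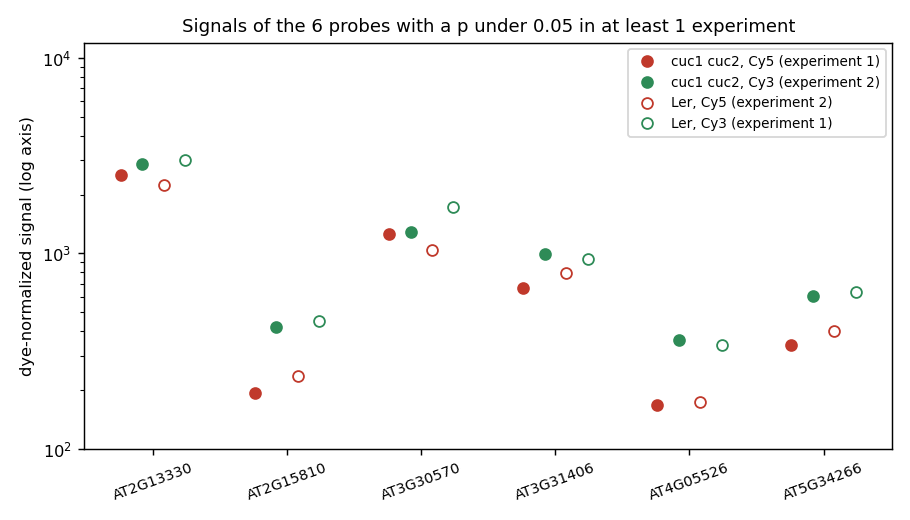
Dye-normalized signal (log axis) of the 6 transposable element probes with a p-value under 0.05 in at least 1 experiment, with cuc1 cuc2 as filled and Ler as open circles, Cy5 in red and Cy3 in green. For each probe the Cy3 signal exceeds the Cy5 signal on the same array in both experiments, and for AT2G15810 the Cy3 signals were 421 in cuc1 cuc2 against 450.0 in Ler.

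Among the 77 elements with the same sign in both hybridizations, the lowest mean ratios were modest. The lowest was that of AT2G25550, a non-LTR reverse transcriptase pseudogene, with signals of 201 in cuc1 cuc2 against 273 in Ler in experiment 1 and of 217 in cuc1 cuc2 against 290.2 in Ler in experiment 2. Both experiments placed it lower in cuc1 cuc2 by a similar amount (log2 ratios of -0.44 and -0.42), with a mean of -0.43 and an error of 0.40, and with other background corrections or normalizations the mean was -0.23 to -0.11. AT3G09510, a non-LTR reverse transcriptase that RefSeq marks as protein-coding, had 501 in cuc1 cuc2 against 611 in Ler in experiment 1 and 529 in cuc1 cuc2 against 635 in Ler in experiment 2, which gave a mean of -0.27 with an error of 0.20. MUG1 (AT3G04605), a Mutator-like transposase of the MUSTANG family that has become a plant gene, had 893 in cuc1 cuc2 against 1036 in Ler in experiment 1 and 843 in cuc1 cuc2 against 1011 in Ler in experiment 2. Its log2 ratios of -0.22 and -0.26 gave a mean of -0.24 with an error of 0.15 and a p-value of 0.187 in experiment 2, which is the lowest p-value among the 10 elements with the lowest ratios.

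The other 7 of these 10 had means between -0.28 and -0.16. AT4G08120, described as a transposon protein, had -0.28 and AT1G38380, described as a retroelement polyprotein, -0.23. AT2G22440 and AT2G07767, both described as non-LTR reverse transcriptases, had -0.23 and -0.19. AT2G19680, described as a copia-like polyprotein, had -0.18. WAVH2 (AT5G65683) had -0.16 and AT2G14630, described as an En/Spm-like protein, -0.16. RefSeq marks AT2G22440, AT2G19680 and WAVH2 as protein-coding, so their descriptions may not name what the genes are. The mean exceeded its error in 5 of the 10, and in 9 of the 10 the hybridizations differed by less than that error. Since the 10 were chosen for the same sign and for low means, this agreement was in part fixed by the choice. All 10 stayed negative with other background corrections or normalizations, at -0.23 to -0.028.

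The highest ratios were within the technical error for 8 of the 10 elements. The highest mean belonged to AT3G23085, an Ac-like transposase pseudogene, with signals of 175 in cuc1 cuc2 against 132 in Ler in experiment 1 and of 160 in cuc1 cuc2 against 139 in Ler in experiment 2. Its mean of 0.30 had an error of 0.62, and it was 0.017 to 0.074 under the other settings. AT5G49665, a protein-coding gene described as copia-like, was brighter, with 1884 in cuc1 cuc2 against 1699 in Ler in experiment 1 and 1831 in cuc1 cuc2 against 1605 in Ler in experiment 2, and its mean of 0.17 had an error of 0.13. WAVH1 (AT2G22680), also described as copia-like, had 4269 in cuc1 cuc2 against 3712 in Ler in experiment 1 and 4084 in cuc1 cuc2 against 3766 in Ler in experiment 2, with a mean of 0.16 and an error of 0.12. These 2 genes are the only ones of the 10 whose mean exceeded its error, and neither had a p-value below 0.231. Their means lay between 0.12 and 0.15 for AT5G49665 and between 0.14 and 0.17 for WAVH1 under the other settings. RefSeq marks both as protein-coding, so their descriptions may not name what the genes are.

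The other 7 had means between 0.14 and 0.29. AT4G08115 and AT1G42515, both described as similar to retroelement polyproteins, had 0.29 and 0.20. AT3G45555, described as similar to a Mutator-like transposase but marked as protein-coding in RefSeq, had 0.19. AT3G33076, described as similar to a gypsy-like polyprotein, had 0.18. AT5G28627, similar to a reverse transcriptase, and AT5G31884, an Athila ORF1 protein, both had 0.17. AT5G34875, described as similar to a Mutator-like transposase, had 0.14. AT1G42515 and AT5G34875 turned negative in 1 of the 4 other settings each.

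**Figure D4:**
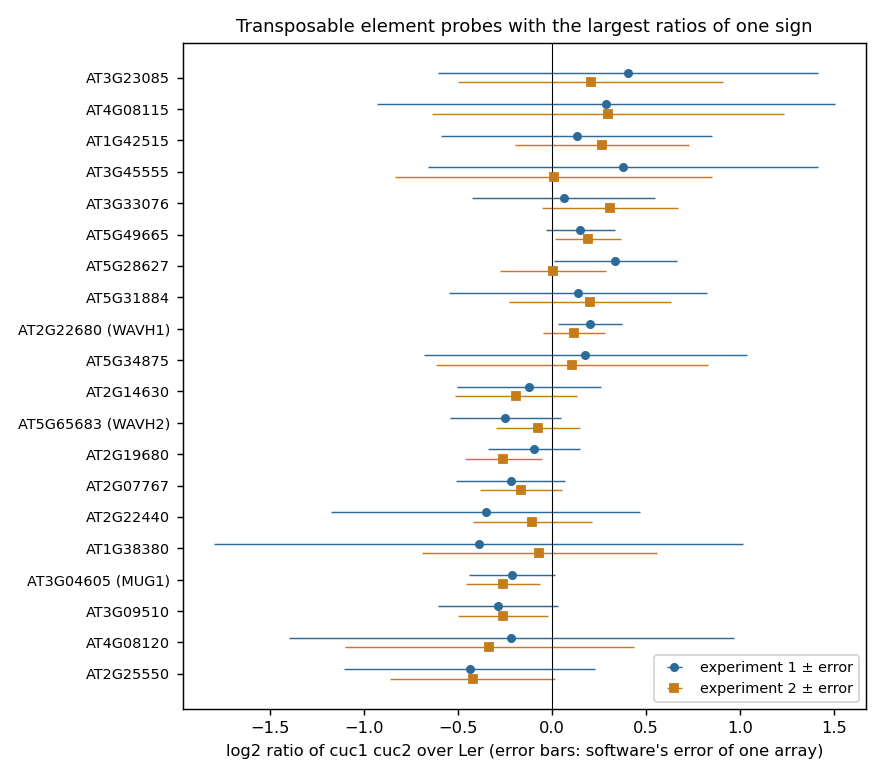
Log2 ratio of cuc1 cuc2 over Ler in experiments 1 and 2 for the 10 transposable element probes with the highest and the 10 with the lowest mean ratio among the 77 well above background with the same sign in both, with the software's error of 1 array as bars. Most bars cross 0, and the means range between -0.43 for AT2G25550 and 0.30 for AT3G23085.

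Few elements were measurable in only 1 genotype. On both arrays, 270 probes were well above background in cuc1 cuc2 against 268 in Ler. For 3 probes this held in cuc1 cuc2 on both arrays and in Ler on neither, and for 1 in Ler on both arrays and in cuc1 cuc2 on neither. Of the 21500 gene probes, 43 showed the first pattern and 7 the second. Both patterns thus made up a larger share of the 433 transposable element probes than of all gene probes. However, a larger share of the elements also lay near the detection limit. Of the 433, 74 were well above background in some channels only, against 1712 of the 21500 gene probes. The counts of both patterns are small and the difference was not tested. For such probes the dim genotype gives at most a limit, for which its signal on each array was taken as the higher of its own value and the faintest signal marked as well above background, after loess and between-channel normalization. AT2G11390, an En/Spm-like pseudogene, had 94.2 in cuc1 cuc2 against 72.3 in Ler in experiment 1 and 98.7 in cuc1 cuc2 against 71.2 in Ler in experiment 2. By this rule its limit was 1.05-fold higher in cuc1 cuc2 (log2 0.073). With median centring its log2 ratio was only 0.017, so the limit holds for the 1 normalization used and not in general. For AT2G12920, a retroelement polyprotein, and AT3G43095, a non-LTR reverse transcriptase, the probe's own value was the higher one, so the 1.03-fold higher value in cuc1 cuc2 of AT2G12920 and the 1.02-fold lower value of AT3G43095 are measured ratios and no limits. AT2G12920 changed sign in 1 of 4 other settings. The Athila ORF1 protein AT2G07455 had 91.5 in cuc1 cuc2 against 68.4 in Ler in experiment 1. In experiment 2 it had 75.8 in cuc1 cuc2 against 63.0 in Ler. It allowed no limit above 1, and its mean log2 ratio changed sign in 3 of 4 other settings. These probes lay at the edge of the background, with no p-value under 0.70.

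One dim probe had a larger ratio and is described because of it. AT4G04635, an En/Spm-like pseudogene, had signals of 259 in cuc1 cuc2 against 83.0 in Ler in experiment 1 and of 231 in cuc1 cuc2 against 100.5 in Ler in experiment 2. It was well above background in cuc1 cuc2 on both arrays and in Ler on the array of experiment 2 only. The cuc1 cuc2 signal was the higher one in either dye, with log2 ratios of 1.64 and 1.20, a mean of 1.42 and an error of 0.61. This was the highest mean of the 433 transposable element probes, but it rests in part on a Ler signal near background. Its p-values of 0.101 and 0.0775 missed the limit, and with other background corrections or normalizations the mean was only 0.22 to 0.46. The remaining 9 transposable elements with a mean beyond 0.5, 4 above and 5 below, were dim in at least 1 channel too, and the lowest p-value of all 10 was that of AT4G04635. Of these 10, AT3G31314, an En/Spm-like protein, and AT4G14743, a reverse transcriptase, were also beyond 0.5 the same way in both experiments, with ratios of 1.10 and 0.59 for AT3G31314 and of 0.59 and 0.82 for AT4G14743. AT3G31314 was well above background only in cuc1 cuc2 in experiment 2 and AT4G14743 in no channel, so their ratios rest on background.

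Several probes with transposable element descriptions represent named plant genes, and their ratios were small as well. Of the 433, 12 carry a gene symbol in RefSeq, and 3 of these (MUG1, MUG2 and MEE19) are marked there as pseudogenes. PDF1 (AT2G42840), a protein of the epidermal cell layer that the array describes as En/Spm-like, had signals of 36931 in cuc1 cuc2 against 39731 in Ler in experiment 1 and of 37525 in cuc1 cuc2 against 42368 in Ler in experiment 2. Its log2 ratios were -0.11 and -0.18. DAYSLEEPER (AT3G42170), a DNA-binding protein derived from a hAT transposase, had 9112 in cuc1 cuc2 against 9657 in Ler in experiment 1 and 9792 in cuc1 cuc2 against 10679 in Ler in experiment 2, with log2 ratios of -0.08 and -0.13. TERT (AT5G16850), the catalytic subunit of telomerase, had log2 ratios of -0.02 and -0.10 at signals between 1272 and 1626. Both ratios of each of these 3 genes were slightly negative and within 2 times their errors.

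SNF7.2 (AT2G19830), a subunit of the ESCRT-III membrane remodelling complex, had log2 ratios of -0.12 and 0.05, and FRS3 (AT2G27110) and FRS2 (AT2G32250), relatives of the light signalling factor FAR1, had means of -0.03 and -0.04. MUG2 (AT2G30640), a relative of MUG1, had 0.13 and -0.20, MEE19 (AT2G34130) had 0.01 and -0.18, and WAVH2, a relative of WAVH1, had -0.25 and -0.08. The probe of MBD12 (AT5G35338), a gene of the methyl-CpG-binding domain family, was not well above background in any channel.

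Plant genes derived from transposases were also examined as a list of 15, of which FRS2, FRS3 and DAYSLEEPER are among the 433. All 15 had a probe well above background in all 4 channels. In cuc1 cuc2 0 were lower and 0 higher, against 0.242% and 0.502% of all gene probes, so 0 calls among 15 genes say little about the list. Their mean log2 ratios ranged between -0.13 and 0.15 with a median of -0.032. FHY3 and FAR1, which activate phytochrome A signalling, had means of -0.07 and 0.06, and ALP1, a Harbinger-derived protein that opposes Polycomb silencing, had 0.10. FRS6 had the highest mean, 0.15, with ratios of 0.60 and -0.31 that opposed each other.

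The genes that set or remove the silencing of transposable elements gave signals in both genotypes and none met the rule. Of 50 genes of DNA methylation, histone modification and small RNA pathways, 42 had a probe, and 41 of these were well above background in all 4 channels, the exception being the de novo methyltransferase gene DRM1. The list includes 5 genes whose products remove silencing marks (ROS1, DME, DML2, DML3 and IBM1), of which DML2 and IBM1 were among the 41. By the rule 0 were lower and 0 higher, against 0.242% and 0.502% of all gene probes. At shares this small, 0 calls in a list of this size say little about its genes. The mean log2 ratios of the 41 ranged between -0.39 and 0.25 with a median of -0.092, against -0.0047 over all gene probes well above background. Of the 41, 20 were lower in both hybridizations, 8 were higher in both and 13 had opposite signs. Over all gene probes well above background, 26.0% were lower in both, 26.1% higher in both and 47.9% opposite. This difference was not tested. Over the 39 without DML2 and IBM1 the median was also -0.092. The lowest was VIM1, whose product binds hemimethylated DNA and assists maintenance methylation, with signals of 2208 in cuc1 cuc2 against 3043 in Ler in experiment 1 and of 2499 in cuc1 cuc2 against 3101 in Ler in experiment 2. Its log2 ratio was -0.46 (p-value 0.00877) in experiment 1 and -0.31 (p-value 0.0648) in experiment 2, so that it passed 0.01 only in experiment 1.

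MET1, the methyltransferase that maintains methylation at CG sites, had signals of 3492 in cuc1 cuc2 against 4521 in Ler in experiment 1 and of 3873 in cuc1 cuc2 against 4525 in Ler in experiment 2, with log2 ratios of -0.37 (p-value 0.0282) and -0.22 (p-value 0.176). CMT3, the methyltransferase of CHG sites, had 4918 in cuc1 cuc2 against 6303 in Ler in experiment 1 and 5294 in cuc1 cuc2 against 5476 in Ler in experiment 2, with log2 ratios of -0.36 (p-value 0.0326) and -0.05 (p-value 0.767). DDM1, the chromatin remodeller on which silencing of most elements depends, had 283 in cuc1 cuc2 against 436 in Ler in experiment 1 and 426 in cuc1 cuc2 against 342 in Ler in experiment 2. Its log2 ratios of -0.63 and 0.32 had opposite signs, with the Cy3 channel brighter both times, so no direction can be given for DDM1. In the small RNA pathway AGO4 and AGO9, which bind the small RNAs that guide methylation, had means of -0.27 and -0.34. CLSY1, which recruits RNA polymerase IV, had 0.25, NRPE1, the largest subunit of RNA polymerase V, had 0.24, and IBM1, a demethylase that protects genes from H3 lysine 9 methylation, had 0.25.

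**Figure D5:**
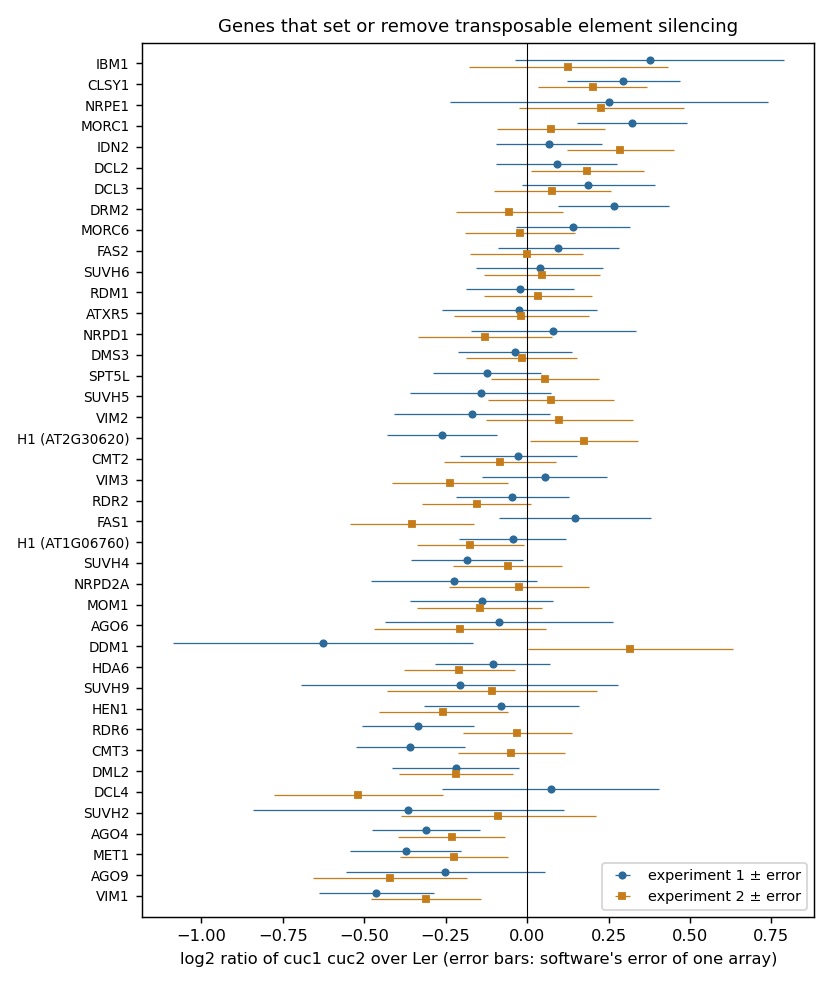
Log2 ratio of cuc1 cuc2 over Ler in experiments 1 and 2 for the 41 genes that set or remove transposable element silencing with a probe well above background in all 4 channels, ordered by mean ratio, with the software's error of 1 array as bars. The means range between -0.39 for VIM1 and 0.25 for IBM1, and the ratios of DDM1 lie on either side of 0.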

How the data were processed

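The authors deposited the scanner output of a dye swap on 2-colour Agilent oligonucleotide arrays, made with Feature Extraction A.7.5.1. In it the software had subtracted background, normalized the dyes and computed, per spot, intensity values for each dye, the log10 ratio of red over green, its error and a p-value. The deposited value table holds the same log10 ratios, which differed from the scanner values by at most 1.66e-09 on the log2 scale, and it was used as an alternative only. Genome build and annotation of the array design are not given in the sources used here. By the dye labels, ratios were expressed as log2 (cuc1 cuc2 over Ler). The mean over the hybridizations counts as 1 biological replicate. Control spots were left out. In each array the gene probes had a median ratio of 0, so values are relative to the bulk of transcripts. Changed genes had the deposited p-value under 0.01 in both hybridizations with the same sign. The rule for naming took called members, the 10 highest and 10 lowest mean ratios among members well above background with the same sign in both hybridizations, members well above background in 1 genotype only, called genes of the lists, and DDM1, MET1, CMT3 and DAYSLEEPER. Other genes were named after their values were seen. Limits for probes dim in 1 genotype used loess and Aquantile normalized channel values. Members and gene lists were chosen with earlier results of these data known. Alternatives used limma 3.58.1 in R 4.3.3 (normexp with an offset of 50, no correction or plain subtraction, with loess or median centring). Other steps used Python 3.11.15, pandas 2.3.3, numpy 2.4.6 and scipy 1.17.1, and the rule was tested on simulated data. The number of arrays limits the precision.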

Additional observations from a re-analysis of the deposited data

How the results depend on the processing

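No paired analysis was possible because each genotype is represented by 1 RNA extract, which both hybridizations share. The counts of 0 transposable elements lower and 0 higher held at a p limit of 0.05 or 0.001, with Benjamini-Hochberg adjustment within each array, with dim or marked spots left out and with either hybridization alone. With a size of 0.5 the same way in both hybridizations and no p limit, 0 were lower and 3 (0.693%) were higher, all dim in at least 1 channel, against 74 (0.344%) and 153 (0.712%) of all gene probes, and after normexp and loess 0 were higher, a setting chosen after seeing the data. At a p limit of 0.05, elements with opposite signs in the hybridizations numbered 2 of 433. This was a larger share than the 25 (0.116%) of all gene probes. By size alone, elements with opposite signs numbered 57 (13.2%), against 1277 (5.94%) of all gene probes. The median ratio of -0.028 was -0.015 with normexp and loess, -0.032 with normexp and median centring, -0.0083 without background correction, -0.016 with plain subtraction and -0.015 with dim probes included. It was -0.027 to -0.022 with either hybridization left out, -0.027 without host genes and -0.024 over RefSeq pseudogenes. The count of 257 well above background was 281 when 1 genotype sufficed and 374 with the software's weaker criterion of a positive and significant signal. Among genes of the silencing list called lower, either hybridization alone gave 0 to 1, the 1 being VIM1 in experiment 1. For the 28 genes named by the rule, all 112 values under the other corrections and normalizations lay within the error of the mean, and with either hybridization left out 2 genes moved by more than it, DDM1 (-0.63 and 0.32, mean -0.15) and CMT3 (-0.36 and -0.05, mean -0.20). The cause of these shifts was not tested. Low signal over background limits every ratio of the dim elements.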
